A study of Mus musculus with 12 samples.

Results

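Left ventricles of GRK-beta1AR transgenic (TG) mice given isoproterenol (ISO) were compared with those of TG mice given vehicle. The comparison took in the 6 arrays whose labels carry the GRK-beta1AR genotype without miR-150, 3 ISO and 3 vehicle, of the 12 arrays in the series. The other arrays are from double transgenic (DTG) mice that also overexpress miR-150, and they enter here only where a difference in ISO response was tested. Every TG mouse, treated or not, was C57BL/6J and carried a cardiac-specific transgene for a mutant beta1-adrenergic receptor without the sites that G protein-coupled receptor kinases (GRKs) phosphorylate, so the comparison shows ISO on top of this receptor and holds no wild-type heart. ISO or vehicle (ascorbic acid in saline) was given for 1 week. The methods name mini-osmotic pumps, while the deposited design text speaks of injection. ISO replicate 1 was a female of 9 weeks, and ISO replicates 2 and 3 were males of 10 weeks. Vehicle replicate 1 was a female of 9 weeks, vehicle replicate 2 a male of 9 weeks and vehicle replicate 3 a male of 12 weeks. In DTG, the ISO mice were males of 10 and 11 weeks and a female of 12 weeks, and the vehicle mice were a female and 2 males, all of 10 weeks.

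ISO is a synthetic catecholamine that activates beta-adrenergic receptors, and its prolonged infusion is a common way to stress the mouse heart. Phosphorylation by GRKs lets a stimulated receptor bind beta-arrestin, which ends coupling to the G protein and starts signaling of its own, and the mutant receptor is impaired in this step. Circular RNAs (circRNAs) are closed loops made when a downstream splice site joins an upstream one. They have no free ends and therefore resist RNase R, the exonuclease used here to digest linear RNA before labeling.

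Each array held 14236 circRNA probes, named only by the manufacturer's numbers, and 50 probes for linear RNAs, each printed as 10 spots. Of the linear RNA probes, 44 were matched to a gene symbol through their transcript accessions in RefSeq. Since RNase R removes linear RNA, the linear RNA probes read what was left after digestion. None of the 55 marker genes listed for 9 cell types had a named probe, and neither did the adrenergic receptor genes. The left ventricular identity of the samples and the transgene could therefore not be checked from these arrays. In RNA from a whole ventricle, fewer cells of a type and less RNA per cell cannot be told apart.

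The circRNA signal as a whole was lower on the ISO arrays before any scaling. The 75th percentile of the circRNA probes was 129, 132 and 424 intensity units on vehicle arrays 1, 2 and 3, and 80.3, 107 and 105 on ISO arrays 1, 2 and 3. All ISO arrays lay below all vehicle arrays, and vehicle replicate 3 lay far above the rest. The difference was a factor of 2.01, or -1.01 on the log2 scale, with an exact permutation p of 0.1, the smallest that 3 arrays against 3 can give. Without vehicle replicate 3 it was -0.44. The 14 control probes for circRNA on the same arrays differed by -0.09 (exact permutation p = 0.7), with ISO replicate 1 the dimmest at 267 units and ISO replicate 2 the brightest at 502. A lower amount of circRNA in the tissue, less input and weaker labeling cannot be told apart here, and each probe is given below relative to its own array's 75th percentile, which removes this difference.

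**Figure D1:**
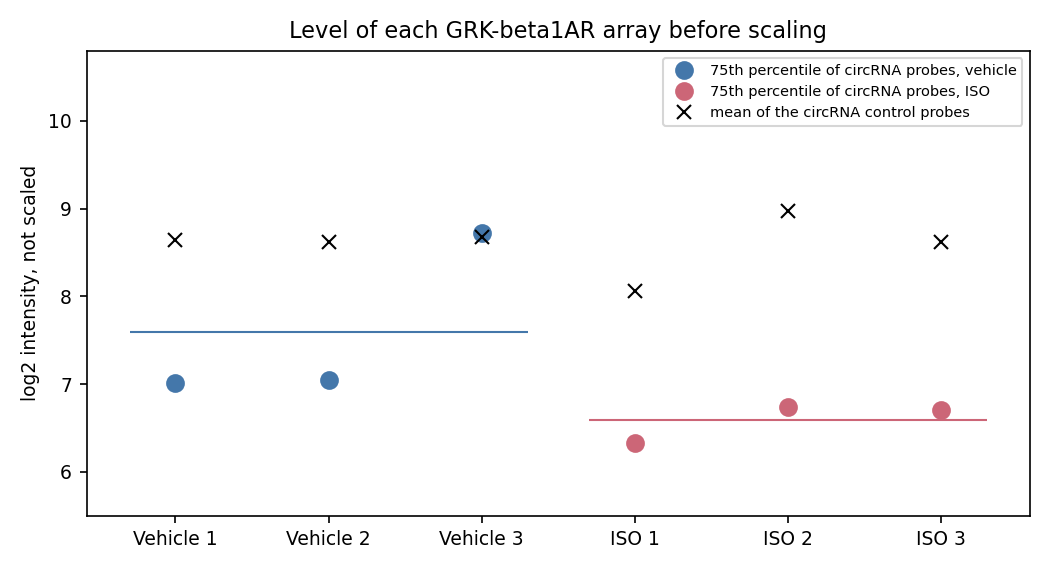
Level of the 6 arrays on the log2 intensity scale before scaling. Filled points are each array's 75th percentile over circRNA probes, horizontal lines are group means, and crosses are the mean of the 14 circRNA control probes. Vehicle 3 stands above all other arrays in its circRNA level (424 intensity units) but not in its control probes.

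After this scaling, the arrays did not sort by treatment. Across the circRNA probes, ISO replicates 1 and 2 were alike, with a Spearman rho of 0.955. ISO replicate 3 was closer to vehicle replicate 2 (0.974) and vehicle replicate 1 (0.943) than to ISO replicate 1 (0.894) or ISO replicate 2 (0.922). Vehicle replicate 3 was the least like any other array, with rho between 0.687 and 0.828. It held the highest or the lowest of the 6 values for 71.2% of the 12706 tested circRNA probes with a value on all 6 arrays. These correlations are across probes that share a library and a brightness, so they describe the arrays and test nothing. The treatment labels of all arrays were taken as given, including those of ISO replicate 3 and vehicle replicate 3, and nothing on the arrays could check them. Vehicle replicate 3 came from the oldest of the 6 mice, and age and this array cannot be told apart.

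**Figure D2:**
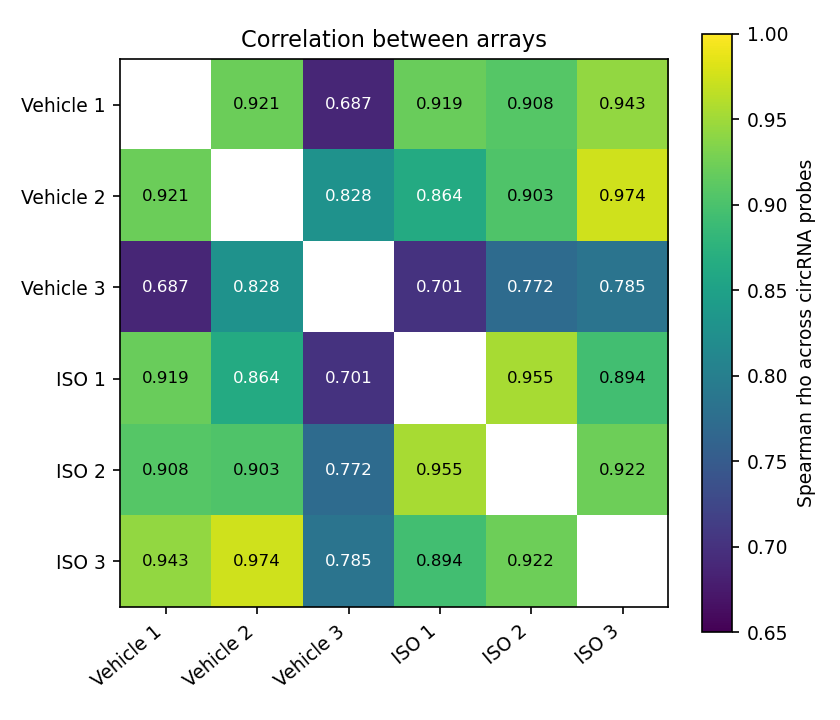
Spearman correlation between each pair of the 6 arrays across the circRNA probes tested, with vehicle arrays first and the diagonal left empty. The row of vehicle 3 is the darkest (0.687 to 0.828), and ISO 3 shares its highest value (0.974) with vehicle 2.

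No probe passed the adjusted limit. Testing was limited to probes that 3 or more of the 6 arrays measured well above background, which kept 12802 circRNA probes (89.9%) and 42 linear RNA probes, and limma called 0 of them (0%) at an adjusted p below 0.05. The lowest adjusted p was 0.763. With weights estimated for each array, which set vehicle replicate 2 at 4.23 and vehicle replicate 3 at 0.189, 1070 circRNA and 7 linear RNA probes passed it. At an unadjusted p below 0.05 there were 417 circRNA probes, or 3.26% of those tested, and 1 linear RNA probe, or 2.38%. The median standard error of a circRNA's log2 fold change was 0.49. Within the groups, the median SD was 0.68 over vehicle arrays and 0.39 over ISO arrays.

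At the second limit, a difference of 1.5-fold or more together with an unadjusted p under 0.05, 278 circRNA probes (2.17%) were higher in ISO and 139 (1.09%) were lower. Of the circRNA probes past this limit, 66.7% were on the higher side. This split depended on the scaling: it was 54.1% with quantile normalization, 88% with a normexp background correction and 0.704% when the arrays were scaled to the circRNA control probes. The last 2 settings moved the median log2 fold change of all circRNA probes from 0.09 to 0.42 and -0.82. A probe was thus higher or lower only relative to the bulk of circRNA on its array.

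In most probes past the second limit, vehicle replicate 3 lay farthest from the ISO arrays. It was the lowest of the 3 vehicle arrays in 214 of the 278 higher probes, and the highest in 100 of the 139 lower ones. ISO replicate 3 was the ISO array nearest to vehicle in 204 and 107 of them. Over the 12706 circRNA probes with a value on all 6 arrays, vehicle replicate 3 was the lowest of the 6 in 40.65% and the highest in 30.55%. Those shares rank it among 6 arrays, and its rank among the 3 vehicle arrays over all probes was not computed. The same holds for ISO replicate 3, so these counts are not read as particular to the probes past the limit. The counts of higher and lower probes past the limit fell to 72 and 37 without ISO replicate 1, to 82 and 33 without ISO replicate 2 and to 165 and 92 without vehicle replicate 2. They were 1709 and 698 without vehicle replicate 1 and 414 and 489 without ISO replicate 3. Without vehicle replicate 3 they were 255 and 150, near the counts from all 6 arrays. The median log2 fold change was 1.35 among the higher probes and -1.31 among the lower ones, as the limit itself requires differences of some size. All 3 ISO arrays lay above all 3 vehicle arrays for 793 circRNA probes (6.19%) and below them for 469 (3.66%).

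Among the higher circRNA probes, ASCRP4009404 was the brighter of the pair with the largest values. Its intensity was 2365, 336 and 1245 units on vehicle arrays 1, 2 and 3, and 2920, 6176 and 2503 on the ISO arrays. All ISO arrays were above all vehicle arrays, although vehicle replicate 1 and ISO replicate 3 were near each other before scaling. Relative to the 75th percentile its log2 fold change was 2.84 ± 0.76 (SE, n = 3 and 3 arrays, limma adjusted p = 0.763). The largest value, for ASCRP4005536, was 3.24 ± 0.68, but it came from a dim probe at 2.86, 1.12 and 9.5 units on the vehicle arrays and 28.1, 17.6 and 6.47 on the ISO arrays. It was well above background on 1 of 3 vehicle arrays.

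The circRNA probes with the largest negative differences were dim on every array. ASCRP4011067 read 10.6, 11.2 and 80.5 units on the vehicle arrays and 1.1, 1.41 and 4.56 on the ISO arrays, none of which was well above background. It was at least 2.15-fold lower in ISO, where the bound sets each ISO array at the dimmest signal still well above background. ASCRP4009642 read 12.5, 16.5 and 72.4 units on the vehicle arrays and 2.38, 1.15 and 7.39 on the ISO arrays. It was well above background on all 3 vehicle arrays but on 1 of 3 ISO arrays, so its log2 fold change of -2.17 ± 0.66 (SE, limma adjusted p = 0.763) rests in part on ISO values near background. Vehicle replicate 3 was the highest array for both.

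**Figure D3:**
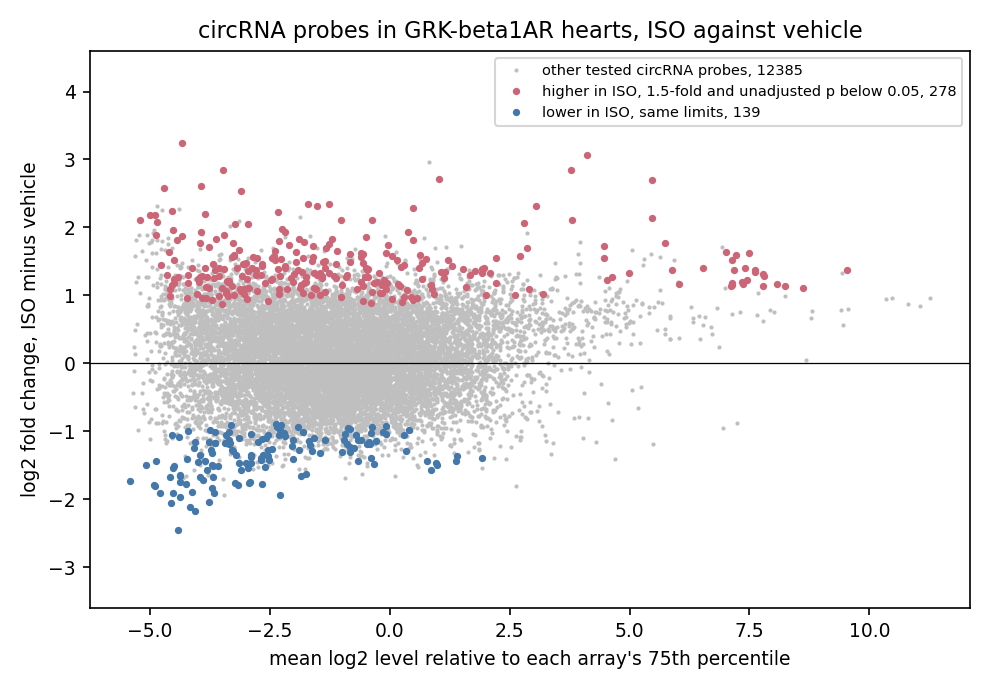
Log2 fold change of ISO over vehicle (vertical axis) against the mean log2 level relative to the 75th percentile (horizontal axis) for the tested circRNA probes, 1 point a probe. Coloured points are the 278 higher and 139 lower probes at 1.5-fold with an unadjusted p below 0.05, none of which passed the adjusted limit; at the bright end most points lie above 0.

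The brightest circRNA probes lay mostly above 0, a set picked for description after the values were seen. Of the 100 circRNA probes with the highest mean level, 94 had a log2 fold change above 0, against 55.2% of all circRNA probes tested, with a median of 0.86. Of the 100, 28 were past the second limit on the higher side and 0 on the lower side, against 2.17% and 1.09% of all circRNA probes tested. Their median level relative to the 75th percentile was 6.31, 6.71 and 5.8 on vehicle arrays 1, 2 and 3 and 6.69, 7.3 and 7.0 on the ISO arrays. Vehicle replicate 3, with the highest 75th percentile, was the lowest array for 73 of the 100 probes, and without it the median log2 fold change was 0.58. In intensity before scaling, the same probes had medians of 10234, 13854 and 23627 on the vehicle arrays and 8330, 16765 and 13357 on the ISO arrays, and the groups overlapped. With quantile normalization 63 of the 100 were above 0 (median 0.10), and with scaling to the control probes 45 were (median -0.047). Past the second limit there were then 2 higher and 3 lower with quantile normalization, and 1 higher and 4 lower with the control probes. The direction therefore held only relative to dimmer circRNAs of the same array, under scalings that shift a whole array by a single value.

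The 42 linear RNA probes tested covered 37 named genes. Their median log2 fold change was 0.23, with 26 above 0 (61.9%) and 16 below. This median became -0.68 when the arrays were scaled to the control probes and 0.076 without vehicle replicate 2. None passed the adjusted limit (0%), and only Gabrg1 passed the second (2.38%). The 7 that passed the adjusted limit with array weights included Lhx1 (log2 fold change 1.91), Gabrg1 (1.6), Apoe (2.23), Acaa2 (-2.36), Gsta4 (-2.31) and Ppara (-1.77). At the second limit there were 9 probes higher in ISO without vehicle replicate 1, 3 higher and 1 lower without vehicle replicate 3, 2 higher and 2 lower without ISO replicate 3, and 0 higher without ISO replicate 2. In 4 probes all ISO arrays lay above all vehicle arrays (9.52%), among them Gabrg1, Pex11a and Tm9sf1, and in 1, Nup50, they lay below (2.38%). Before scaling, the groups overlapped in Gabrg1, Pex11a and Tm9sf1. The signal of 17 of the 50 probes was above the brightest negative control on all 6 arrays. Values below are log2 levels relative to the array's 75th percentile, followed by log2 fold changes with standard errors over 3 arrays a group, and no level is set against that of another probe.

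Among genes of lipid handling, Apoe, Acaa2 and Ppara varied widely between arrays of the same group. Apoe encodes apolipoprotein E, a carrier of lipids made by macrophages and liver and also found in heart tissue. Its level was 2.52, 2.25 and 4.81 on vehicle arrays 1, 2 and 3, and 4.90, 4.97 and 2.48 on ISO arrays 1, 2 and 3. ISO replicates 1 and 2 lay with vehicle replicate 3 at the high end, ISO replicate 3 lay with vehicle replicates 1 and 2 at the low end, and the groups overlapped. The log2 fold change was 0.93 ± 0.86 (SE, limma adjusted p = 0.765), with a 95% interval from -1.03 to 2.88. It was 0.54 with quantile normalization, 0.24 with the normexp correction and 0.016 with scaling to the control probes.

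The probes for Acaa2 and Ppara showed the reverse order of arrays. Acaa2 is the mitochondrial thiolase that releases acetyl-CoA in the last step of fatty acid oxidation, and Ppara is a nuclear receptor that drives genes of this pathway. Acaa2 was at 0.75, 1.83 and -0.31 on the vehicle arrays and at -0.97, -1.14 and 1.49 on the ISO arrays. Ppara was at 2.24, 2.26 and -0.44 on the vehicle arrays and at 0.02, 0.17 and 1.96 on the ISO arrays. For both genes the replicate 3 arrays lay nearer to the first 2 replicates of the opposite treatment than to those of their own. The log2 fold changes were -0.97 ± 0.80 (limma adjusted p = 0.763) for Acaa2 and -0.64 ± 0.82 (limma adjusted p = 0.811) for Ppara, and both 95% intervals included 0.

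Cpt1a, the carnitine palmitoyltransferase that admits long-chain fatty acids to mitochondria, had a log2 fold change of -0.42 ± 0.48 (limma adjusted p = 0.796). It was at -0.51, -0.66 and 0.45 on the vehicle arrays and at -1.27, -0.50 and -0.18 on the ISO arrays, so the groups overlapped. Acaa2 and Cpt1a are the 2 members with a probe out of 24 genes listed for mitochondrial fatty acid oxidation. Both lay below 0, with a median of -0.69 against 0.23 over all linear RNA probes tested, and neither passed a limit. Pex11a, which takes part in the division of peroxisomes, was at 1.21, 1.41 and 0.09 on the vehicle arrays and at 1.74, 1.90 and 1.61 on the ISO arrays. Here all ISO arrays were above all vehicle arrays and vehicle replicate 3 was far below the rest. Before scaling, Pex11a read 298, 351 and 451 units on the vehicle arrays and 269, 398 and 319 on the ISO arrays. The unscaled groups thus overlapped, and vehicle replicate 3 was the brightest array for Pex11a. Its log2 fold change was 0.85 ± 0.45 (limma adjusted p = 0.763) and turned to -0.061 with scaling to the control probes.

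**Figure D4:**
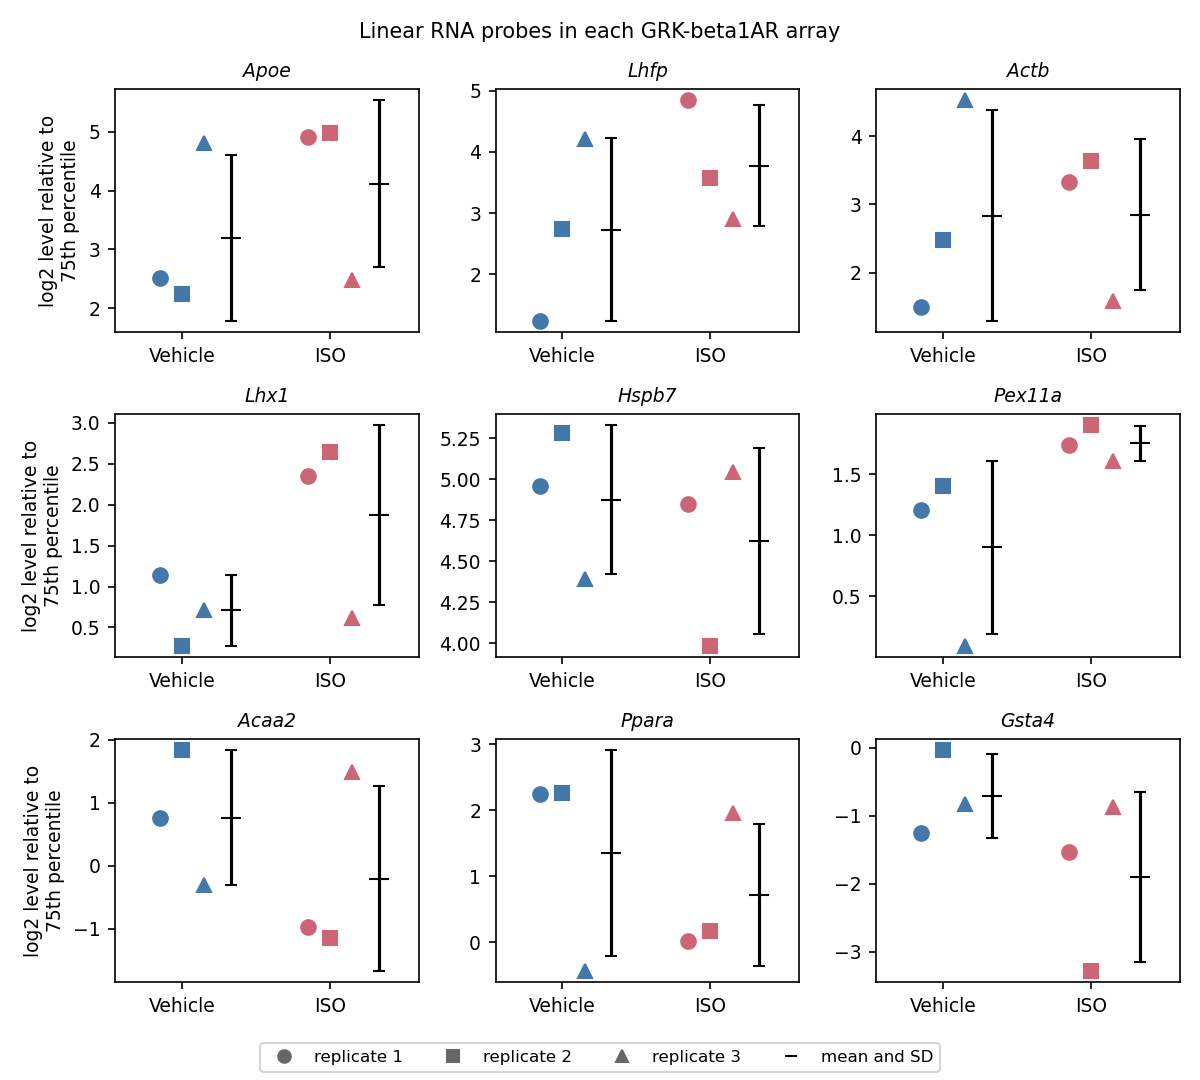
Log2 level relative to each array's 75th percentile (vertical axis) for 9 linear RNA probes in the vehicle (blue) and ISO (red) arrays, with the mean and SD of each group in black and a marker for each replicate number. In Apoe, Actb, Acaa2 and Ppara the replicate 3 arrays (triangles) lie on the other side from the first 2 replicates of their group, and in Pex11a the groups do not overlap.

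None of the genes of glutathione and peroxide metabolism passed a limit. Gsta4, a glutathione transferase that clears the lipid peroxidation product 4-hydroxynonenal, was at -1.25, -0.04 and -0.83 on the vehicle arrays and at -1.53, -3.29 and -0.88 on the ISO arrays. ISO replicate 2 was the lowest array, and ISO replicate 3 lay inside the vehicle range. The log2 fold change of Gsta4, -1.19 ± 0.65 (limma adjusted p = 0.763), was the most negative of the linear RNA probes tested and lay between -1.71 and -0.50 when single arrays were left out. It was -0.21 with the normexp correction and -2.10 with scaling to the control probes. For Prdx2, a peroxiredoxin that reduces hydrogen peroxide, the value was -0.19 ± 0.39 (limma adjusted p = 0.876). They are the 2 members with a probe out of 34 listed antioxidant and detoxification genes, with a median of -0.69. Duox1, an oxidase that makes hydrogen peroxide, had a log2 fold change of 0.89 ± 0.60 (limma adjusted p = 0.763), and it was -0.023 with scaling to the control probes.

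Lhx1 encodes a transcription factor known from neural and kidney development. It was at 1.14, 0.27 and 0.71 on the vehicle arrays and at 2.35, 2.65 and 0.62 on the ISO arrays, with ISO replicate 3 inside the vehicle range. Its log2 fold change was 1.16 ± 0.58 (limma adjusted p = 0.763). It kept its sign under every scaling tried but not its size, at 0.76 with the normexp correction and 0.25 with scaling to the control probes.

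Actb and Lhfp shared the high value of vehicle replicate 3. Actb, cytoplasmic beta-actin, is present in non-muscle cells and is often taken as a reference gene. It was at 1.5, 2.48 and 4.53 on the vehicle arrays and at 3.33, 3.64 and 1.59 on the ISO arrays, and its log2 fold change was 0.02 ± 0.83 (limma adjusted p = 0.996). The sign of this value turned under 4 of the 5 other scalings and background corrections, and its 95% interval ran from -1.86 to 1.89, so the probe offers no stable reference. Lhfp, which encodes a tetraspan membrane protein, was at 1.24, 2.74 and 4.22 on the vehicle arrays and at 4.85, 3.57 and 2.91 on the ISO arrays. The groups overlapped, and the log2 fold change was 1.04 ± 0.78 (limma adjusted p = 0.763).

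Hspb7, a small heat shock protein of heart and skeletal muscle, was detected on every array. It was at 4.96, 5.29 and 4.39 on the vehicle arrays and at 4.85, 3.98 and 5.05 on the ISO arrays, with the groups fully interleaved and a log2 fold change of -0.25 ± 0.45 (limma adjusted p = 0.859). Before scaling, Hspb7 read 4004, 5165 and 8877 units on the vehicle arrays and 2314, 1683 and 3456 on the ISO arrays. The unscaled groups thus did not overlap. Its log2 fold change was -0.71 with quantile normalization, -0.96 with the normexp correction and -1.16 with scaling to the control probes. H2-Q7, a class I major histocompatibility gene, differed by 0.20 ± 0.43 (limma adjusted p = 0.884). For Gpi1, the glycolytic enzyme that interconverts glucose and fructose phosphates and the 1 member with a probe out of 18 glycolysis genes, the value was -0.18 ± 0.44 (limma adjusted p = 0.897). These 3 genes had intervals from about 1 log2 unit below 0 to about 1 above, so differences of up to 2-fold could not be told from none.

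Gabrg1, a subunit of GABA receptors, passed the second limit but was measured near background. Its intensity was 6.11, 3.78 and 3.21 units on the vehicle arrays and 4.79, 9.86 and 13.6 on the ISO arrays, and it was well above background on 1 of 3 vehicle and 2 of 3 ISO arrays. The unscaled groups overlapped, while the scaled ones did not. The log2 fold change was 2.04 ± 0.68 (limma adjusted p = 0.763; exact permutation p = 0.1). Vehicle replicate 3 stood apart in Uhrf1bp1l and Nup50, which were dim on the other arrays. Uhrf1bp1l read 20.2, 27.5 and 386 units on the vehicle arrays and 23.6, 14.0 and 8.68 on the ISO arrays, with a log2 fold change of -1.07 ± 0.74 (limma adjusted p = 0.763). Nup50, a protein of the nuclear pore, was at -3.17, -3.29 and -1.35 on the vehicle arrays and at -3.59, -3.48 and -3.62 on the ISO arrays, and its log2 fold change was -0.96 ± 0.55 (limma adjusted p = 0.763). Cep41 and Rab5a, of the centrosome and early endosome, had values of -0.92 and -0.49, Anxa8, an annexin, 0.94, and the odorant receptor Olfr166 0.70. None of these passed a limit.

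Of the 8 linear RNA probes not tested, Cav2, a caveolin of the plasma membrane, was the only one whose bound lay above a fold of 1. It read 3.43, 8.03 and 120 units on the vehicle arrays and 1.16, 1.07 and 1.41 on the ISO arrays. It was well above background on 2 of 3 vehicle arrays and on 0 of 3 ISO arrays. The level was at least 1.51-fold lower in ISO, but this bound rests on vehicle replicate 3, and without that array it fell to -0.35 on the log2 scale, which leaves no bound. The vehicle mean also takes in the array that was not well above background. The other 7 probes, among them Mbp, Tyr and Chgb, were not well above background on any ISO array.

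**Figure D5:**
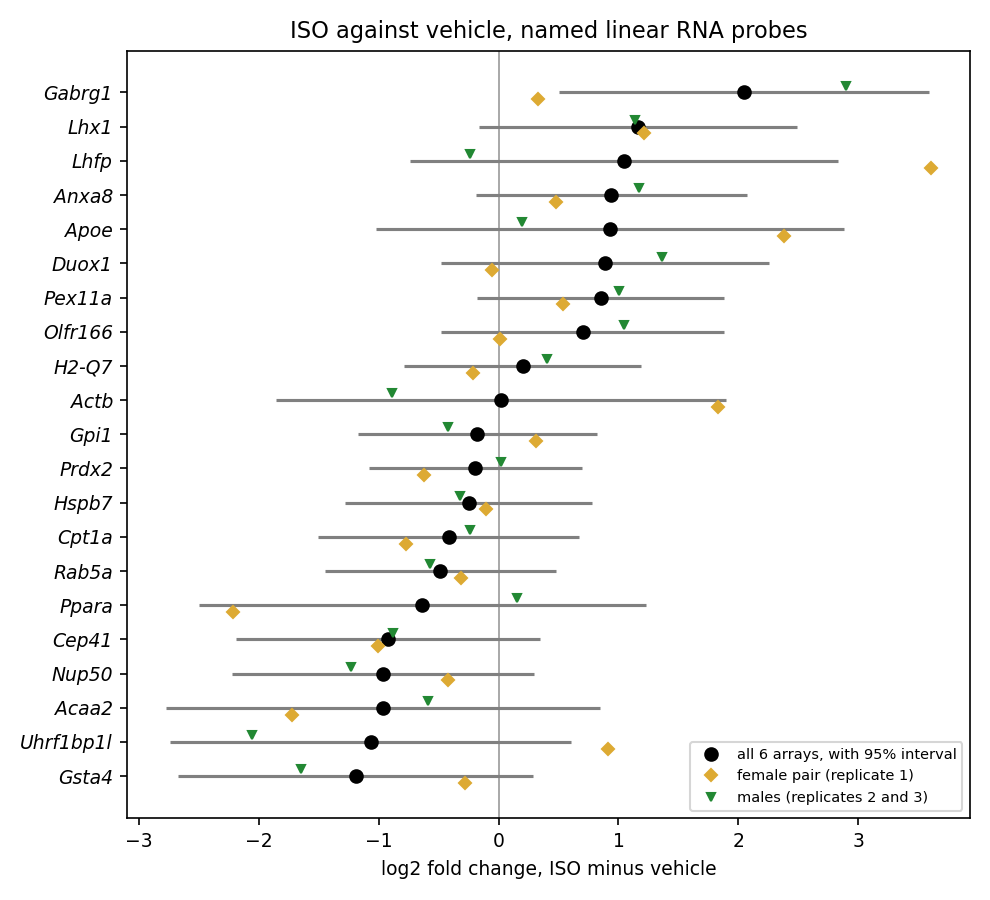
Log2 fold change of ISO over vehicle for the 21 named linear RNA genes, with the 95% interval from limma over all 6 arrays (black), the difference between the female mice of replicate 1 (diamonds) and that between the males of replicates 2 and 3 (triangles). All intervals but that of Gabrg1 include 0, and the female and male values lie on opposite sides of 0 in genes such as Lhfp, Actb and Ppara.

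Splitting by sex left 1 mouse a group among females and 2 a group among males, so the values carry no test. Of the 42 linear RNA probes tested, 23 had the same sign in both sexes. Apoe differed by 2.38 between the females and by 0.20 between the males, Ppara by -2.22 and 0.16, Lhfp by 3.61 and -0.24, and Actb by 1.83 and -0.89. Lhx1 differed by 1.21 and 1.14 and Acaa2 by -1.72 and -0.59. Since both replicate 3 arrays come from males, sex and the arrays that stood apart cannot be told apart.

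When ISO replicate 3 and vehicle replicate 3 were both left out, a choice made after the values were seen, some differences grew and more of them shrank. Of the 40 linear RNA probes tested both ways, 16 became larger in size and 24 smaller, and 8 of the 40 turned sign. The arrays were chosen for their values, and with 2 arrays a group the results are given as a description of the remaining 4 mice. In them, 15 circRNA probes passed the adjusted limit, 14 higher (0.113%) and 1 lower (0.00808%) in ISO, and 0 linear RNA probes did. Apoe had a log2 fold change of 2.55 ± 0.36 (limma adjusted p = 0.0537), Ppara of -2.15 ± 0.35 (limma adjusted p = 0.0775) and Acaa2 of -2.35 ± 0.45 (limma adjusted p = 0.118). Lhfp was at 2.22, Lhx1 at 1.79, Actb at 1.5 and Gsta4 at -1.77, each at an unadjusted p below 0.05. In the opposite direction, Uhrf1bp1l moved from -1.07 to 0.13, Nup50 from -0.96 to -0.31, Cep41 from -0.92 to -0.20 and Duox1 from 0.89 to 0.44. Pex11a moved from 0.85 to 0.52 and Anxa8 from 0.94 to 0.63.

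The ISO response was also set against that of DTG hearts, where 3 ISO and 3 vehicle arrays were fitted together with the 6 TG arrays. All 3 DTG ISO arrays and DTG vehicle replicate 3 were on another slide than the TG arrays, while DTG vehicle replicates 1 and 2 shared the slide of the TG arrays. The ISO response in DTG is thus largely mixed with slide. No probe showed a difference in response at an adjusted p below 0.05, and the lowest adjusted p was 0.734. At an unadjusted p below 0.05 there were 630 circRNA (4.93%) and 5 linear RNA probes (11.9%). Among them were Pex11a, Anxa8, Lhx1 and Tm9sf1, with log2 fold changes in TG of 0.85, 0.94, 1.16 and 0.70 and in DTG of -0.24, -0.28, -0.37 and -0.37. With slide as a term, where the DTG response on the other slide rests on a single vehicle array, 106 circRNA and 0 linear RNA probes were left at this unadjusted limit. The difference for Pex11a was then -0.90 ± 0.59, against -1.09 ± 0.46 without the term, and for Lhx1 -1.08 ± 0.83 against -1.53 ± 0.67. For Apoe the DTG value was 0.16, a difference of -0.77 ± 0.99 (limma adjusted p = 0.813) from that in TG.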

How the data were processed

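Per the labels, total RNA was treated with RNase R, amplified with random primers, labeled with Cy3 and hybridized to Arraystar mouse circRNA arrays, 1 array per mouse. The deposited intensity values were written by Agilent Feature Extraction 11.0.1.1 after its own background correction, on a linear scale and not normalized between arrays. The other deposited columns used were flags for outlier spots and for signal well above background.

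Outlier spots were dropped, log2 intensity was averaged per probe, and levels were taken relative to each array's 75th percentile over circRNA probes. Those that 3 or more of the 6 TG arrays measured well above background were tested with limma 3.58.1 (lmFit and eBayes) in R 4.3.3, with Benjamini-Hochberg adjustment over all 12844 probes, a limit of 0.05 and a second limit of 1.5-fold with an unadjusted p below 0.05. The difference from DTG was an interaction over 12 arrays, in which slide and the DTG treatment largely coincide. Single values were tested by exact two-sided permutation. Linear RNA genes were named if past the second limit, among the 8 highest or 8 lowest log2 fold changes, among the 8 highest levels, or in a gene list; circRNA probes, by number, were the 2 largest differences each way with an unadjusted p below 0.05 and groups that do not overlap. A linear RNA gene that met this rule is not reported here. Tm9sf1 and Cav2 were named after their values were seen. The members, gene lists and tests were chosen with earlier results of these data known. Of 13 gene lists, 4 had a tested member (fatty acid oxidation, antioxidant and detoxification, glycolysis with Gpi1, and apolipoproteins with Apoe); the lists for respiration, contraction, calcium and adrenergic signaling, fetal genes, matrix, immune genes, apoptosis, ribosomal proteins and host genes had none.

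Alternatives were 3 other scalings by a single value per array, quantile normalization, a normexp correction with an offset of 50 on median spot and background signals (the mean signal was not used), other filters, replicate, sex and age as terms, all 12 arrays, array weights, a variance trend, a 2-fold limit, the methods' t-test and the omission of arrays. All 6 TG arrays were on 1 slide, and slide as a term in the interaction was added after the data were seen. The 4 arrays in its first row were the vehicle arrays and ISO replicate 1, and the effect of the row was not tested. The fit was tested on simulated data. The number of arrays and the signal over background set the precision, and up to 27.3% of negative control spots on a TG array were marked as well above background. Figures were drawn with matplotlib 3.10.9.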

Additional observations from a re-analysis of the deposited data

How the results depend on the processing

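The count of 0 probes at the adjusted limit held under the scalings, normexp, filters, terms, variance trend, the methods' t-test and leaving out single arrays, but array weights (vehicle 2 at 4.23, vehicle 3 at 0.189) gave 1070 circRNA probes, 7 linear RNA probes (among them Gsta4, Acaa2, Ppara, Apoe, Lhx1 and Gabrg1) and 10 linear RNA probes with another response in DTG, and leaving out both replicate 3 arrays gave 15 circRNA probes. Causes were not tested. The circRNA probes higher and lower at the second limit (278 and 139) were 7 and 988 with scaling to control probes, 1931 and 263 with normexp, 573 and 252 with sex, 677 and 338 with age, 1023 and 730 with all 12 arrays, 2523 and 1754 with array weights, 174 higher with the methods' t-test, 826 and 957 without both replicate 3 arrays, and 72 to 1709 and 33 to 698 without single arrays, highest without vehicle replicate 1. Linear RNA probes higher and lower (1 and 0) were 0 and 3 with control probes, 8 and 1 with normexp, 2 and 1 with age, 5 and 1 with all 12 arrays, 14 and 4 with array weights, 5 and 3 without both replicate 3 arrays, 0 higher with detection on all 6 arrays and with the methods' t-test, 1 lower with no filter, and 0 to 9 and 0 to 2 without single arrays. Their median log2 fold change (0.23) was -0.68 with control probes, 0.47 with normexp, 0.47 with array weights, and 0.076 to 0.33 without single arrays.

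Log2 fold changes turned sign in these cases. With normexp, Uhrf1bp1l was 0.16, Nup50 0.47, Cep41 0.73, Rab5a 0.70, Prdx2 0.022, H2-Q7 -0.51 and Actb -0.49. With control probes, Pex11a was -0.061, Duox1 -0.023, Olfr166 -0.21, H2-Q7 -0.71 and Actb -0.89. With quantile normalization, H2-Q7 was -0.086 and Actb -0.28, and with the median of circRNA probes Actb was -0.0059. With array weights, Cep41 was 0.011, Rab5a 0.015 and H2-Q7 -0.10. Without both replicate 3 arrays, Uhrf1bp1l was 0.13 and H2-Q7 -0.083. Without single arrays, Hspb7 ran from -0.50 to 0.071, H2-Q7 from -0.039 to 0.46, Actb from -0.65 to 0.87 and Gpi1 from -0.44 to 0.12. The recomputed values pool probe counts, medians and log2 fold changes. Of them, 517 were classed as unchanged, 55 as moved, 6 as stronger and 27 as reversed. For a log2 fold change, unchanged means the same sign and the same side of the adjusted limit. No gene passed that limit in the main fit. For a count or median, unchanged means only a value within a set margin of the main one.

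The replicate numbers did not pair the samples: deviations from group means correlated at 0.37, -0.26 and -0.08 within numbers 1, 2 and 3, and only number 1 correlated best with itself. With the replicate number as a block, 0 probes passed the adjusted limit, and 619 circRNA probes were higher and 313 lower at the second limit. Slide as a term was not run for ISO against vehicle, since all 6 arrays were on 1 slide. In the fit with DTG it left 0 linear RNA probes at the adjusted limit. With 3 arrays a group and a median standard error of 0.49, a typical probe needed about 1 log2 unit to reach an unadjusted p below 0.05. In the main fit no difference of any size passed the adjusted limit, including that of 3.24 for ASCRP4005536.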
